A study of Mus musculus with 2 samples.

Results

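The cells described here are endothelial cells of mouse aortic and mitral valves chosen by their summed transcripts of Wnt9b, Pthlh and Dkk2, a group named for the leaflet surface. They were taken from 2 Drop-seq libraries of C57BL/6J mouse heart valve, 1 from postnatal day 7 (P7) and 1 from postnatal day 30 (P30). Drop-seq captures single cells in droplets and reads transcripts from their poly(A) end, and each captured molecule is counted once through its unique molecular identifier (UMI). Each barcode stands for a cell. No genotype other than the strain and no treatment was given, and the number of animals, their sex and the share of aortic against mitral tissue were not given in the sources used here. A barcode was a member when it held at most 20000 UMIs, less than 1% of its UMIs from Col1a1, Col1a2, Col3a1 and Dcn, at least 2 UMIs of Pecam1, Cdh5, Emcn, Egfl7, Esam and Tie1, and more UMIs of Wnt9b, Pthlh and Dkk2 together than of Prox1, Cldn11 and Foxc2 or of Fabp4, Vwf, Edn1 and Cytl1. This gave 117 of 4473 barcodes, 31 of 961 at P7 and 86 of 3512 at P30. They are called surface barcodes below, although the tables hold no position in the leaflet.

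The comparison group was made of the 185 other endothelial barcodes that met the first conditions but not the last, 64 at P7 and 121 at P30. Of these, 77 were highest for the Prox1 sum, which marks lymphatic-type endothelium, 63 for the Fabp4 sum, which marks vascular-type endothelium, and 45 had no single highest sum. Surface barcodes made up 32.6% (exact binomial 95% interval 23.4 to 43.0) of endothelial barcodes at P7 and 41.5% (34.8 to 48.6) at P30. Of all barcodes they made up 3.23% (2.2 to 4.55) and 2.45% (1.96 to 3.02). With 1 library per age, no difference had a replicate check, no test was made, and age, run and library cannot be told apart. All intervals are 95% and cover counting error only.

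Valve endothelium covers both faces of each leaflet and is exposed to blood flow. Wnt9b encodes a secreted Wnt ligand, one of the proteins that bind Frizzled receptors on receiving cells and can stabilise beta-catenin there. Pthlh encodes parathyroid hormone-related protein, a secreted peptide that acts through the receptor Pth1r, and Dkk2 encodes a secreted modulator of Wnt signalling that binds the Lrp5 and Lrp6 co-receptors. Wnt9b has been described in valve endocardium downstream of the flow-responsive factors Klf2 and Klf4, which bind CACCC-type elements.

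The promoter bases of the rule genes are shown because detection of these genes defines the group. Each runs 5′ to 3′ on the gene's strand, from RefSeq on GRCm38.p6, and stops before the first exon that GENCODE M21 annotates. Capitals mark CACCC or its complement GGGTG, searched on both strands with overlaps allowed.
Wnt9b: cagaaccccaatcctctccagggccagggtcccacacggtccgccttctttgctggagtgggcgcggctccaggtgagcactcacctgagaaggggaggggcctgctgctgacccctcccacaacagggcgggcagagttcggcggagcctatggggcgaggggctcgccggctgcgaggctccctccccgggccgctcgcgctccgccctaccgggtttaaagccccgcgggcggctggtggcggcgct
Pthlh: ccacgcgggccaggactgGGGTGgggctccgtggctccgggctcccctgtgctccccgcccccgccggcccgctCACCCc
Dkk2: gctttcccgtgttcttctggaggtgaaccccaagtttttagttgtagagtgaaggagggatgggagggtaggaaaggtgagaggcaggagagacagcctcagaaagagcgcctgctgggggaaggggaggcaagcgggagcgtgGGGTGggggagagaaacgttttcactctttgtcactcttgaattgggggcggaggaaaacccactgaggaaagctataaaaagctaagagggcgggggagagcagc
The Wnt9b window of 250 bases (chr11:103749822-103750071, minus strand) held 0 matches and the Dkk2 window of 250 bases (chr3:132085042-132085291, plus strand) held 1. The Pthlh window of 80 bases (chr6:147264184-147264263, minus strand) held 2. A match was found in 52.0% of 32851 RefSeq promoter windows of 250 bases and in 19.9% of the same windows limited to their first 80 bases. These letters describe the windows only.

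The surface barcodes held 155012 UMIs at P7 and 336011 at P30, with medians of 3701 and 2423.5 UMIs and 2002 and 1240 genes per barcode. The other endothelial barcodes had medians of 2393.5 and 2703 UMIs. Levels are given as UMIs per 1000000 UMIs of the group (CPM) with exact Poisson intervals, and at this depth 1 group's floor of 3 counts stood at 19.4 CPM in P7 and 8.93 CPM in P30 surface barcodes. No barcode sequence was shared between the libraries. Some abundant RNAs took a larger share at P30. Malat1, a nuclear noncoding RNA, held 1.41% of P7 and 7.18% of P30 surface UMIs, and mitochondrial ribosomal mt-Rnr2 held 0.386% and 3.06%. In the other endothelial barcodes these shares were 1.15% and 4.77%, and 0.287% and 3.56%.

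The rule genes chose the barcodes, so their levels are a description. Pthlh was detected in 29 of 31 P7 members and 65 of 86 P30 members, Wnt9b in 24 and 60, and Dkk2 in 20 and 63. In matrix-gene barcodes, which hold at least 1% collagen and Dcn UMIs and no endothelial UMI (median 2187 UMIs at P7 and 2506 at P30), the share with a Pthlh UMI was 0.724% at P7 and 1.20% at P30. The unthinned Pthlh share in the surface barcodes was 93.5% and 75.6%, and thinned to 500 UMIs per barcode it was 51.3% and 34.1%. Pthlh stood at 1497 CPM (1310 to 1702) at P7 and 881 (783 to 987) at P30. Wnt9b stood at 864 CPM (724 to 1024) and 607 (527 to 696), and Dkk2 at 884 (742 to 1045) and 1125 (1014 to 1244). Pthlh was thus the most frequently detected of the 3 genes in both libraries. All 3 genes were found in 15 of 31 and 39 of 86 members, whose median depths were 6644 and 3750 UMIs.

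Members near the threshold were shallower, with median depths of 2003.5 UMIs at P7 and 1531 at P30 when ahead by 1, against 5087 and 2922 when ahead by 2 or more. The surface sum was ahead of both other sums by exactly 1 UMI in 4 P7 and 19 P30 members, and by 2 or more in 27 and 67. Just outside, 2 P7 and 7 P30 barcodes with a surface UMI were tied with another sum, and 13 and 18 held no UMI of any sum. The summed level of the 15 leading higher genes named below was 10586 CPM at P7 and 16934 CPM at P30 in barcodes ahead by 2 or more, and 6551 and 6105 CPM in those ahead by 1. It was 2416 and 4227 CPM in tied barcodes, and 606 and 1471 CPM in barcodes behind another sum. These genes were named because they were higher in members than in the other endothelial barcodes, so a fall from members to the rest was fixed in advance. As a median over barcodes, the level at P7 was 2659 CPM in the 4 members ahead by 1 and 2557 CPM in the 2 tied barcodes, so these did not stand apart, and at P30 it was 5358 and 3012 CPM. Members with exactly 2 endothelial UMIs numbered 2 and 20.

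Each rule gene was also read in barcodes chosen without it. Wnt9b stood at 849 CPM (707 to 1011) at P7 in the 29 barcodes chosen by Pthlh and Dkk2, against 52.2 (27.8 to 89.3) in the 66 others. At P30 it stood at 601 CPM (518 to 693) in 76 barcodes against 94.1 (70.3 to 123) in 131. Left out in turn, Pthlh was 2.34 higher on the log2 scale at P7 (1.92 to 2.77) and 2.93 higher at P30 (2.53 to 3.34), and Dkk2 was 2.2 (1.67 to 2.75) and 3.25 higher (2.87 to 3.64). Each gene thus stood higher in the barcodes chosen by the other 2, in both libraries. The chosen barcodes were deeper, for example a median of 5206 against 2377 UMIs for Pthlh at P7, and the other groups' marker sums still entered these choices.

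The endothelial label was checked on markers the rule did not use. Erg, an endothelial transcription factor, stood at 471 CPM (369 to 592) at P7 and 705 (618 to 801) at P30 in surface barcodes, and Tek, an angiopoietin receptor, at 568 (455 to 699) and 366 (304 to 437). Cldn5, a tight junction claudin, had 3 UMIs at P7 and 0 at P30 in these barcodes, and Kdr, a VEGF receptor, stood at 96.8 (54.2 to 160) and 53.6 CPM (31.7 to 84.7). These 4 markers summed to 1155 and 1125 CPM, against 933 and 1025 CPM in the other endothelial barcodes and 43.9 and 23.1 CPM in matrix-gene barcodes. The wider pan-endothelial list was mixed against the other endothelial barcodes, with 6 of 28 measured genes higher and 2 lower at P7 and 4 of 27 higher and 6 lower at P30 (medians 0.29 and −0.07). Over all measured genes 11.7% were higher and 8.47% lower at P7, and 11.1% and 7.73% at P30, by the limits given below. Podxl and Cd34, both sialomucin genes, were higher in both libraries and Clec14a, a C-type lectin gene, was lower in both. Clec14a stood at 38.7 CPM (14.2 to 84.2) against 170 (122 to 231) at P7 and at 44.6 (25.0 to 73.6) against 128 (99.7 to 163) at P30. Podxl stood at 490 CPM (386 to 614) against 195 (143 to 259) at P7 and at 533 (458 to 617) against 132 (103 to 167) at P30.

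Markers of other cell types were present at unequal levels. The 10 interstitial fibroblast markers, all detected, summed to 2097 CPM at P7 and 2622 CPM at P30 in surface barcodes, against 6650 and 6736 CPM in other endothelial and 63225 and 46292 CPM in matrix-gene barcodes. At least 2 interstitial UMIs were held by 30 of 31 P7 and 71 of 86 P30 members. Macrophage markers summed to 19.4 and 399 CPM, and 1 P30 member with 4631 UMIs, a surface sum of 1 and 2 endothelial UMIs held 91.0% of the P30 total. Melanocyte markers summed to 0 and 35.7 CPM, and epicardial markers were at 0 in both libraries. Erythroid markers summed to 2935 and 851 CPM against 6700 and 7813 CPM in the other endothelial barcodes, and 2 or more such UMIs were held by 30 of 31 P7 and 48 of 86 P30 members. At P7 1 member with 19978 UMIs held 64.9% of the members' cell cycle UMIs. In the comparison group, single barcodes held 98.7% of mast cell UMIs at P7 and 96.1% of melanocyte UMIs at P30.

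Against the other endothelial barcodes, the surface barcodes carried more Ly6c1, Prnp, Ptprr, Igfbp5 and Inhba and less Postn, Fn1, Ednrb and Tm4sf1. A gene counted as measured with at least 50 CPM and 10 UMIs in the higher group, and as higher or lower when it was at least 2-fold apart with an interval that did not reach equal levels. At P7, 504 of 4297 measured genes (11.7%) were higher and 364 (8.47%) lower. At P30, 437 of 3934 (11.1%) were higher and 304 (7.73%) lower. The median over all measured genes was 0.03 at P7 and 0.07 at P30, and medians of gene lists below are on the same log2 scale. Counts of called genes in those lists are to be read beside these shares over all genes. Some list genes were measured only through the group where they were higher, so such counts and medians are partly set by the filter. Of 3389 genes measured in both, 208 (6.14%) were higher and 102 (3.01%) lower in both libraries. Within these 3389 genes, 403 were higher at P7 and 320 at P30, and the 208 were 51.6% and 65.0% of them. Likewise 271 were lower at P7 and 227 at P30, and the 102 were 37.6% and 44.9% of them. These contrasts were fixed by the rule in part, so the values below describe the group. Under scaling by trimmed mean of M values (TMM), and under the median of ratios, P7 split into 438 higher and 458 lower, and 486 and 415. P30 split into 370 and 367, and 393 and 344. TMM moved all ratios down by 0.10 at P7 and 0.11 at P30. With each gene's highest barcode left out P7 split into 405 and 448. The lists below therefore lead with genes that kept their call under both scalings and with each gene's highest barcode left out, 153 higher and 88 lower in both libraries.

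**Figure D1:**
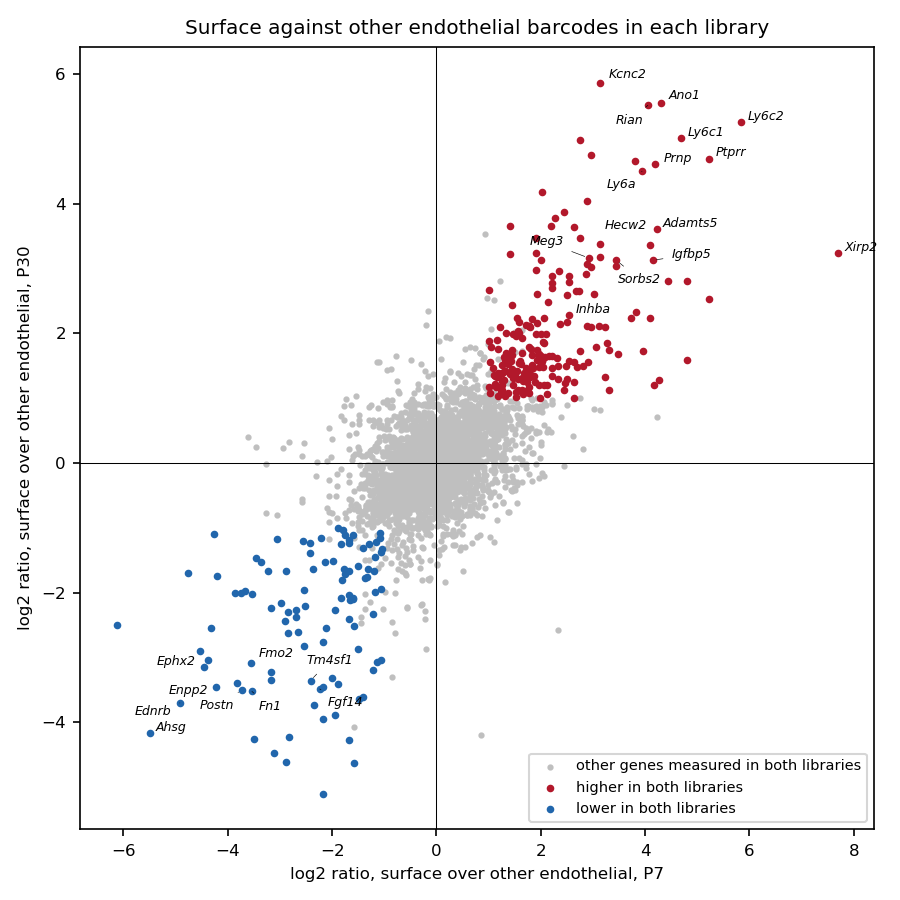
Log2 ratio of surface over other endothelial barcodes for each gene measured in both libraries, P7 on the horizontal and P30 on the vertical axis; red points are the 208 genes higher and blue points the 102 genes lower in both, and labels name the 15 leading higher and 9 leading lower genes. Labelled genes lie far from the origin in both libraries, with Xirp2 at 7.70 at P7 and 3.24 at P30 and Ahsg at −5.49 and −4.17; a gene with no UMI in a group is plotted at its bound.

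Ly6c1 was farthest above the other endothelial barcodes by the ranking used here. Ly6c1, a GPI-anchored Ly6 family gene (chr15:75044018-75048830 on mm10), had 50 UMIs at P7, or 323 CPM (239 to 425), and 0 UMIs in the other endothelial barcodes, at least 25.9-fold higher against a floor of 3 counts in that group. At P30 it stood at 732 CPM (643 to 830) against 22.7 (11.7 to 39.6), 32.3-fold. It was detected in 48.4% of P7 and 60.5% of P30 members (12.3% and 27.4% thinned) and in 0.145% and 1.02% of matrix-gene barcodes. The neighbouring Ly6c2 stood at 239 CPM (168 to 329) against 4.15 (0.105 to 23.1) at P7 and at 217 (170 to 273) against 5.67 (1.17 to 16.6) at P30. Ly6c1 and Ly6c2 are near-identical copies, so the division of reads between them is uncertain. Ly6a, which encodes the Sca-1 antigen, stood at 510 CPM (403 to 635) against 33.2 (14.3 to 65.4) at P7 and at 1366 (1244 to 1497) against 60.4 (41.3 to 85.3) at P30.

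Prnp, which encodes the cellular prion protein, was the most abundant of the 15 leading higher genes in P7 surface barcodes. It stood at 2426 CPM (2187 to 2684) against 133 (90.7 to 187) at P7, 18.3-fold, and at 1518 (1389 to 1655) against 62.3 (42.9 to 87.5) at P30, 24.4-fold. Ptprr, a receptor-type tyrosine phosphatase gene, stood at 310 CPM (228 to 411) against 8.29 (1 to 30) at P7 and at 342 (283 to 411) against 13.2 (5.31 to 27.2) at P30. The chloride channel gene Ano1 stood at 245 CPM (173 to 336) against 12.4 (2.56 to 36.3) and at 265 (213 to 326) against 5.67 (1.17 to 16.6). Kcnc2, a voltage-gated potassium channel gene, stood at 110 CPM in both libraries (63.9 to 176 and 77.5 to 152), with 0 and 1 UMI in the other endothelial barcodes. The surface levels of Ptprr, Ano1 and Kcnc2 differed between the ages by less than the counting intervals.

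Sorbs2, which encodes an adaptor of the actin cytoskeleton, stood at 452 CPM (352 to 571) against 41.5 (19.9 to 76.2) at P7 and at 545 (469 to 630) against 62.3 (42.9 to 87.5) at P30. The ubiquitin ligase gene Hecw2 stood at 110 CPM (63.9 to 176) against no UMI, and at 98.2 (67.6 to 138) against 9.44 (3.07 to 22). Xirp2, which encodes an actin-binding protein best known from striated muscle, was carried by few members. Its 134 P7 UMIs lay in 6 members, 69.4% of them in 1, and its 48 P30 UMIs in 8 members, 58.3% in 1. Without cardiomyocyte or other cell type marker barcodes (erythroid markers not used) the P30 Xirp2 log2 ratio was 1.20, and thinned to 500 UMIs it was −0.09. Cardiomyocyte markers summed to 77.4 and 89.3 CPM in surface and 104 and 88.8 CPM in other endothelial barcodes.

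**Figure D2:**
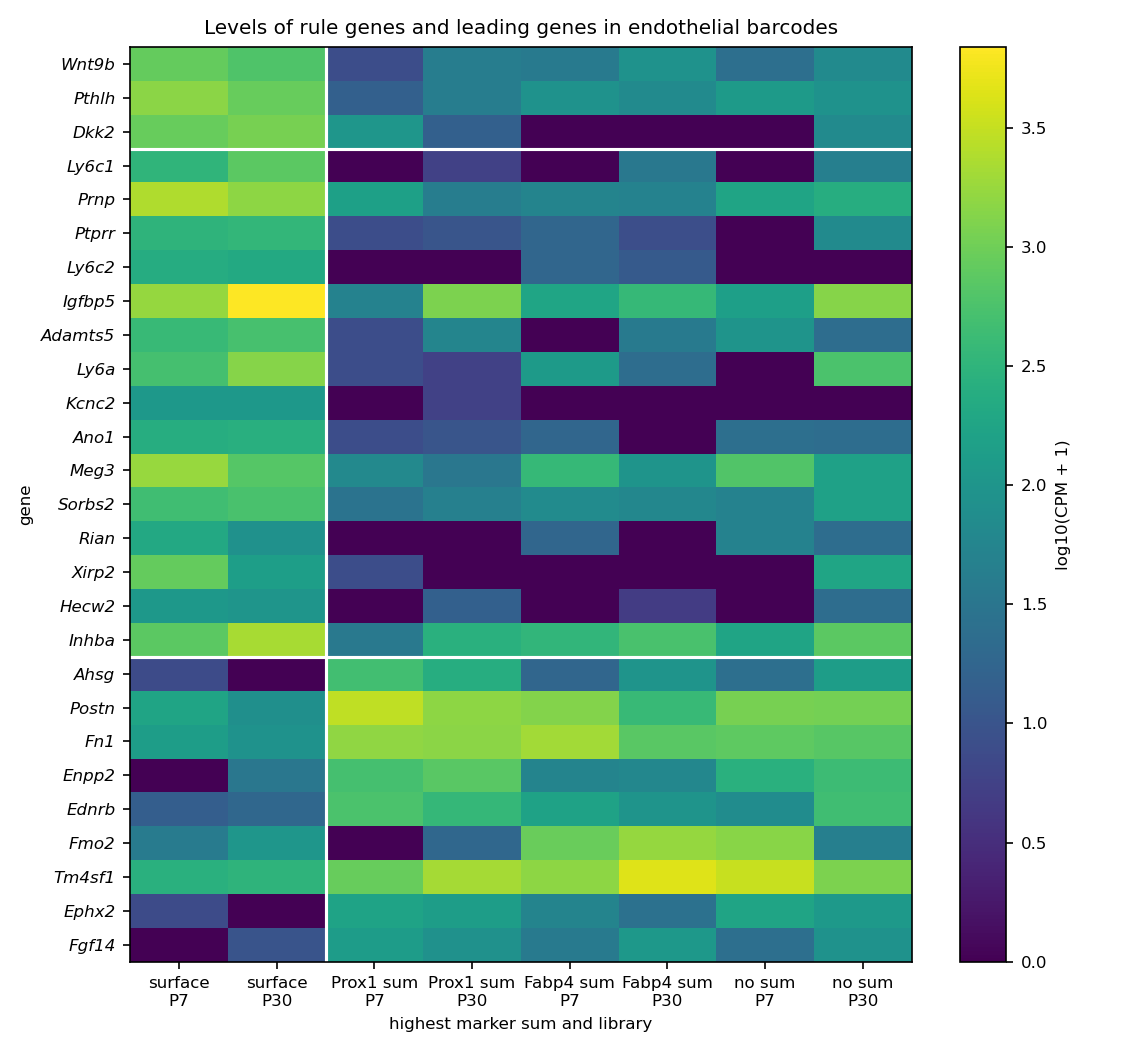
Level of the 3 rule genes, the 15 leading higher and 9 leading lower genes (rows, separated by white lines) in endothelial barcodes grouped by highest marker sum and library (columns), coloured by log10(CPM + 1). The 15 higher genes are brighter in both surface columns than in the Prox1 and Fabp4 columns, with Igfbp5 at P30 the brightest cell (6905 CPM), and the lower genes are darker there, except Fmo2 beside the Prox1 columns.

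Among the leading lower genes were those of matrix proteins, receptors and enzymes. Postn, the gene of the matricellular protein periostin, stood at 174 CPM (115 to 253) against 2301 (2113 to 2501) at P7 and at 80.4 (53.0 to 117) against 910 (831 to 995) at P30. Fn1, which encodes fibronectin, stood at 135 CPM (83.9 to 207) against 1571 (1417 to 1738) and at 89.3 (60.2 to 127) against 1027 (943 to 1117). Matrix-gene barcodes held Postn at 5393 and 1291 CPM and Fn1 at 216 and 37.8 CPM, so Fn1 was higher in the other endothelial barcodes than in the matrix-gene barcodes. The part that interstitial RNA, higher in the other endothelial barcodes by the marker sums above, has in the Postn difference was not tested.

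Ednrb, an endothelin receptor gene, stood at 12.9 CPM (1.56 to 46.6) against 390 (315 to 477) at P7 and at 17.9 (6.55 to 38.9) against 232 (193 to 277) at P30. Enpp2, which encodes autotaxin, had 0 UMIs against 361 CPM (289 to 445) at P7 and stood at 32.7 (16.3 to 58.6) against 361 (311 to 416) at P30. The tetraspanin-like gene Tm4sf1 stood at 271 CPM (195 to 366) against 1443 (1295 to 1603) and at 312 (256 to 378) against 3203 (3052 to 3359). The flavin monooxygenase gene Fmo2 was at 38.7 CPM (14.2 to 84.2) against 456 (375 to 550) and at 104 (72.6 to 145) against 886 (807 to 970). Ahsg (fetuin-A), Ephx2 (soluble epoxide hydrolase) and Fgf14 had 0 or 1 UMI each at P7 and 0 to 3 at P30 in surface barcodes, with 22 to 85 UMIs in the others. Of these 9 genes, 6 had 6 or fewer UMIs in the P7 surface barcodes, so the size of their fold is known only loosely.

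The leading genes were also read against the Prox1 and Fabp4 barcodes separately. All 15 leading higher genes were also higher than in the Prox1 barcodes (percent of all measured genes higher, 14.2 at P7 and 11.8 at P30) and than in the Fabp4 barcodes (10.5 and 12.7), in both libraries. Since the other endothelial group is made of these barcodes, this only says that neither kind alone carried the difference. Of the 9 leading lower genes described, 8 were lower than in the Prox1 barcodes at P7 (8.76% of measured genes) and 8 at P30 (8.93%). Against the Fabp4 barcodes 4 were lower at P7 (7.31%), where the other 5 were not measured, and 7 at P30 (9%). Fmo2 was the exception against the Prox1 barcodes. It stood at 0 CPM in P7 and 18.4 CPM in P30 Prox1 barcodes against 903 and 1729 CPM in Fabp4 barcodes, and was higher in surface than in Prox1 barcodes at P30 by 2.5 (log2). Enpp2 had the opposite spread, with 508 and 718 CPM in Prox1 and 53.1 and 59.8 CPM in Fabp4 barcodes.

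Among Wnt ligands other than Wnt9b, 17 list members were in the tables and few were measured. Of 4 measured at P7, 3 were higher and 0 lower, and of 3 measured at P30, 2 were higher and 1 lower, and the 3 at P30, like Wnt7a at P7, passed the filter only through the group where they were higher. Wnt4, a ligand often signalling without beta-catenin, stood at 458 CPM (358 to 578) against 62.2 (34.8 to 103) at P7 and at 164 (123 to 213) against 37.8 (23.1 to 58.3) at P30. Wnt16 stood at 181 (120 to 261) against 87.1 (53.9 to 133) and at 137 (100 to 183) against 39.7 (24.5 to 60.6), and its P7 call was not kept under every scaling. Wnt7a stood at 103 CPM (59.0 to 168) at P7 against 0 UMIs and at 23.8 (10.3 to 46.9) at P30, below the measured minimum. Wnt2 was lower at P30, at 41.7 CPM (22.8 to 69.9) against 104 (78.2 to 135).

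On the receiving side, Tspan12, which encodes a Frizzled-4 co-activator, was higher in both libraries, at 168 CPM (110 to 246) against 33.2 (14.3 to 65.4) and at 208 (162 to 263) against 73.7 (52.4 to 101). Fzd4 itself had 1 and 0 UMIs in surface barcodes. Lrp6, a Wnt co-receptor gene, was lower at P30, at 29.8 CPM (14.3 to 54.7) against 71.8 (50.8 to 98.5). Rspo3, which encodes an R-spondin that strengthens Wnt signals, had 0 UMIs against 87.1 CPM (53.9 to 133) at P7, at least 4.50-fold lower, and stood at 8.93 (1.84 to 26.1) against 138 (108 to 173) at P30. Its level was 266 and 254 CPM in Fabp4 barcodes and 0 and 13.8 CPM in Prox1 barcodes. Of the intracellular and target genes of the pathway, 7 of 21 were measured at P7 and 5 at P30, and none was called in both libraries. The target gene Axin2 had 2 and 4 UMIs, and Lef1 had 0 in surface barcodes in both libraries.

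For the PTHrP pathway, 3 of 7 list members in the tables were measured in each library. The receptor gene Pth1r had 0 UMIs in surface barcodes in both libraries and 0 and 1 in the others, against 16.9 and 76.7 CPM in matrix-gene barcodes. Mef2c, a transcription factor gene, was higher at P30, at 65.5 CPM (41.0 to 99.1) against 15.1 (6.52 to 29.8).

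In the BMP and TGF-beta list, Inhba, Inhbb and Ltbp2 were higher in both libraries. Inhba, the activin A subunit (chr13:16011851-16031621), stood at 748 CPM (618 to 898) against 129 (87.3 to 182) at P7 and at 2208 (2052 to 2373) against 453 (398 to 514) at P30. The activin B subunit gene Inhbb stood at 116 CPM (68.8 to 184) against 8.29 (1 to 30) and at 95.2 (65.1 to 134) against 3.78 (0.457 to 13.6). Ltbp2, which encodes a latent TGF-beta binding protein, stood at 83.9 (44.7 to 143) against 12.4 (2.56 to 36.3) and at 119 (85.0 to 162) against 3.78 (0.457 to 13.6), and its P7 call, of 13 UMIs, was not kept under all 3 checks. Id2, a BMP target encoding an inhibitor of bHLH factors, was lower, at 213 (147 to 299) against 481 (397 to 577) and at 176 (134 to 226) against 701 (631 to 776). In all, 5 of 23 measured members were higher and 1 lower at P7, and 3 of 19 were higher and 3 lower at P30, with medians of 0.05 and −0.25. The list as a whole thus lay near the median of all genes at P7 and below it at P30.

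Among other secreted signals, Igfbp5, which encodes an insulin-like growth factor binding protein (chr1:72857932-72874884), had the highest level in P30 surface barcodes of those named here. It stood at 1684 CPM (1486 to 1901) against 95.4 (60.4 to 143) at P7 and at 6905 (6626 to 7191) against 791 (717 to 871) at P30, detected in 71.0% and 80.2% of members (39.3% and 63.2% thinned) and in 11.7% and 19.5% of matrix-gene barcodes. Igfbp4 had the opposite sign, at 64.5 (30.9 to 119) against 373 (300 to 459) and at 47.6 (27.2 to 77.3) against 338 (290 to 391). Of 22 measured secreted signals 11 were higher and 4 lower at P7 (median 0.92), and of 25 at P30, 7 were higher and 5 lower (median 0.10). Angptl2, an angiopoietin-like gene, was higher in both libraries, at 284 CPM (206 to 381) against 49.7 (25.7 to 86.9) and at 137 (100 to 183) against 30.2 (17.3 to 49.1).

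Sema3a, a guidance ligand, and Vegfa, the main endothelial growth factor, were higher in both, but their P7 calls, of 20 and 15 UMIs, were not kept under all 3 checks. At P30 the EGF family genes Areg and Ereg and the semaphorin gene Sema3c had larger ratios than Igfbp5, Areg at 196 CPM (152 to 250) against 5.67 (1.17 to 16.6) with 47.0% of its 66 UMIs in 1 member, and Ereg at 83.3 (55.4 to 120) against 5.67 (1.17 to 16.6). Sema3c stood at 119 (85.0 to 162) against 9.44 (3.07 to 22). The heparin-binding cytokine gene Ptn was lower, at 19.4 (3.99 to 56.6) against 245 (186 to 316) and at 116 (82.5 to 159) against 457 (401 to 518). Matrix-gene barcodes carried Ptn at 1212 and 745 CPM.

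**Figure D3:**
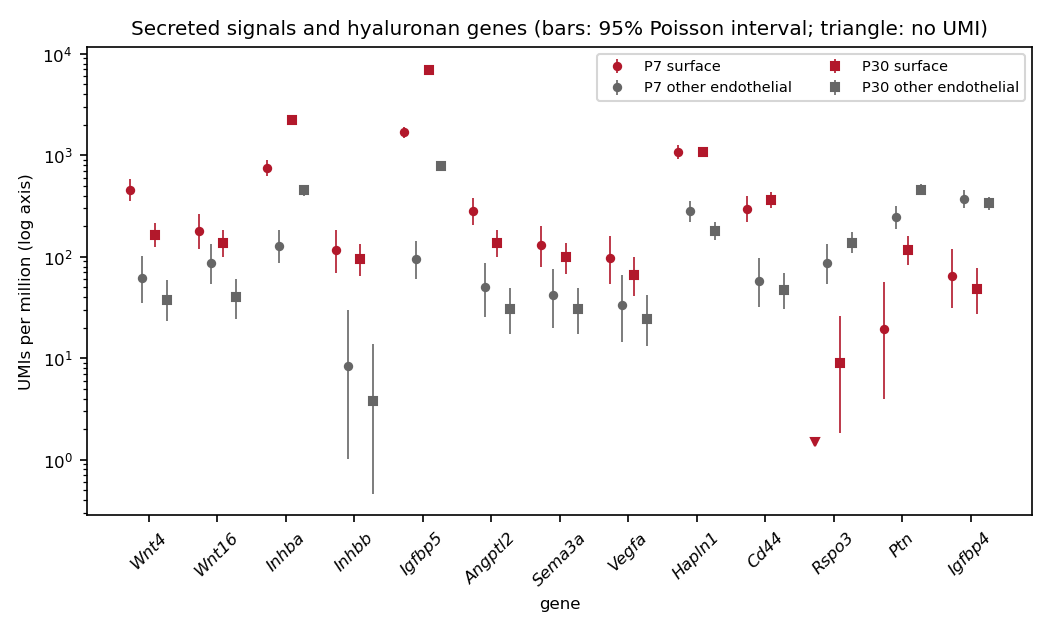
Levels in CPM (log axis) of 13 secreted signal and hyaluronan genes in surface (red) and other endothelial (grey) barcodes at P7 (circles) and P30 (squares), with 95% Poisson intervals; the triangle marks Rspo3 at P7, with no UMI. Inhba and Igfbp5 lie higher in surface barcodes in both libraries and higher at P30 than at P7, while Rspo3, Ptn and Igfbp4 lie lower in surface barcodes.

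Hyaluronan and proteoglycan genes were mostly higher or not called. Of 9 measured hyaluronan and proteoglycan genes 5 were higher and 0 lower at P7, and of 11 at P30, 6 were higher and 1 lower, with medians of 1.84 and 1.40. Most of the list was not measured. Members such as Gpc6 in both libraries and Cd44 and Sdc2 at P30 passed the filter only through the surface barcodes, so these counts and medians are partly set by the filter. The P7 call of the list gene Prelp was not kept with its highest barcode left out. Hapln1, which encodes the link protein joining proteoglycans to hyaluronan, stood at 1077 CPM (920 to 1254) against 282 (219 to 357) at P7 and at 1086 (978 to 1204) against 179 (145 to 219) at P30. Cd44, the hyaluronan receptor gene, stood at 297 (217 to 396) against 58.0 (31.7 to 97.4) and at 366 (304 to 437) against 47.2 (30.6 to 69.7). The glypican gene Gpc6 stood at 96.8 (54.2 to 160) against 16.6 (4.52 to 42.5) and at 167 (126 to 216) against 22.7 (11.7 to 39.6). Vcan, the versican gene, was higher at P30 only by the call, at 464 (394 to 543) against 176 (142 to 215), and stood at 684 (560 to 827) against 568 (477 to 671) at P7; whether the ages differ in this was not tested.

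Other matrix and protease genes split. Of 21 measured at P7, 3 were higher and 7 lower, and of 16 at P30, 4 were higher and 6 lower, with medians of −0.47 and 0.06. Adamts5, an aggrecan- and versican-cleaving protease gene, stood at 387 CPM (295 to 498) against 20.7 (6.73 to 48.4) at P7 and at 530 (455 to 614) against 43.4 (27.5 to 65.2) at P30. The microfibril gene Mfap5 stood at 432 (335 to 549) against 141 (97.6 to 197) and at 298 (242 to 362) against 104 (78.2 to 135). Timp3, a protease inhibitor gene, was lower, at 381 (290 to 491) against 983 (861 to 1116) and at 1113 (1003 to 1232) against 3807 (3643 to 3977). Col23a1, a transmembrane collagen gene, had 5 and 3 UMIs in surface against 31 and 47 in other endothelial barcodes.

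The flow-responsive list was mixed. Klf2, which encodes a flow-induced factor, stood at 910 CPM (766 to 1073) against 705 (603 to 819) at P7 and at 1131 (1020 to 1251) against 1135 (1046 to 1229) at P30, log2 ratios of 0.37 (0.04 to 0.70) and −0.01 (−0.19 to 0.18). Klf4 was higher at P7, at 1800 (1595 to 2024) against 709 (607 to 824), and stood at 2574 (2406 to 2752) against 2091 (1969 to 2217) at P30. Of 17 measured members, 6 were higher and 3 lower at P7 and 3 higher and 2 lower at P30, with medians of 0.19 and 0.10. Over all genes 11.7% were higher and 8.47% lower at P7, and 11.1% and 7.73% at P30. Slc9a3r2, an endothelial scaffold gene, stood at 999.9 CPM (849 to 1170) against 216 (161 to 283) and at 661 (577 to 754) against 240 (200 to 285). Pi16 stood at 290 (212 to 388) against 45.6 (22.8 to 81.6) and at 310 (253 to 375) against 49.1 (32.1 to 71.9). Nos3, the endothelial nitric oxide synthase gene, was higher at P7, at 471 (369 to 592) against 162 (115 to 221), and stood at 345 (285 to 414) against 208 (171 to 250) at P30. The arterial connexin gene Gja4 had 2 and 1 UMIs in surface barcodes and stood at 112 (73.8 to 163) and 66.1 CPM (46.0 to 91.9) in the others.

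In the Notch list, the target gene Hey2 was higher, at 284 CPM (206 to 381) against 62.2 (34.8 to 103) at P7 and at 119 (85.0 to 162) against 9.44 (3.07 to 22) at P30. Efnb2, an arterial ephrin gene, was lower, at 226 (157 to 314) against 522 (435 to 622) and at 80.4 (53.0 to 117) against 402 (350 to 460). In all 3 of 7 measured members were higher and 2 lower at P7, and 1 of 7 was higher and 1 lower at P30, with medians of 0.87 and 0.22. The P30 counts are of 1 gene each way, where 11.1% of all genes were higher and 7.73% lower. Nrg1, a neuregulin gene placed in this list as an endocardial Notch target, stood at 232 CPM (163 to 322) against 24.9 (9.13 to 54.1) at P7, with 61.1% of its UMIs in 1 member, and at 17.9 (6.55 to 38.9) at P30.

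Of 13 valve transcription factor genes measured at P7, 0 were higher and 2 lower, and of 14 at P30, 2 were higher and 2 lower, with medians of −0.23 and −0.00. The shares over all genes were 11.7% higher and 8.47% lower at P7 and 11.1% and 7.73% at P30. With so few genes called, nothing is read from these counts. Nfatc1, the valve endocardial factor gene, stood at 174 CPM in both groups at P7 (115 to 253 and 125 to 235) and at 128 (92.6 to 172) against 81.2 (58.8 to 109) at P30. Foxc1 was lower, with 2 and 22 UMIs, at 12.9 (1.56 to 46.6) against 141 (97.6 to 197) and at 65.5 (41.0 to 99.1) against 181 (147 to 221).

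Capillary, arterial and venous genes were mostly lower at P30, where 10 of 15 measured members were lower and 3 higher (median −2.17). At P7, 4 of 14 were higher and 4 lower (median −0.24). Bmx, an arterial kinase gene, stood at 51.6 CPM (22.3 to 102) against 199 (147 to 264) at P7 and at 50.6 (29.5 to 81.0) against 746 (674 to 823) at P30, and its level in Fabp4 barcodes was 461 and 1378 CPM. The Fabp4 sum was used by the rule, so vascular genes were set apart by construction. Aqp1, a water channel gene, was nevertheless higher in surface barcodes, at 1045 (890 to 1219) against 162 (115 to 221) and at 1277 (1159 to 1403) against 459 (403 to 520). Aqp1 was detected in 30 of 31 and 77 of 86 members, more than any rule gene. Stmn2, which encodes a microtubule regulator, was also higher, at 181 (120 to 261) against 16.6 (4.52 to 42.5) and at 280 (226 to 342) against 34.0 (20.1 to 53.7).

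Of the lymphatic genes outside the rule, 2 of 8 measured at P7 were lower and 0 higher, and at P30 6 of 13 were lower and 0 higher, with medians of −0.84 and −0.25. With the highest barcode left out 3 of the 13 were higher at P30, the hyaluronan receptor gene Lyve1 by 2.51, the semaphorin receptor gene Nrp2 by 1.10 and the polarity gene Pard6g by 1.05, beside the 6 lower. Stab1, a scavenger receptor gene, had 1 and 7 UMIs in surface barcodes, the 7 within 1 member, and stood at 149 (105 to 207) and 155 CPM (123 to 192) in the others. Among endocardial genes 4 of 13 were higher and 4 lower at P7, and 3 of 12 were higher and 3 lower at P30, with medians of 0.48 and 0.19. The shares over all genes were 11.7% higher and 8.47% lower at P7 and 11.1% and 7.73% at P30. Of this list, Hapln1 and Tmem100 were higher in both libraries, and Npr3, Cgnl1 and Tm4sf1 were lower in both. The P7 call of Tmem100 was not kept with its highest barcode left out. Npr3, a natriuretic peptide receptor gene and endocardial marker, had 1 and 5 UMIs and stood at 129 (87.3 to 182) and 86.9 CPM (63.6 to 116) in the others. Cgnl1, which encodes a tight junction protein, was lower, at 755 (624 to 905) against 1857 (1689 to 2038) and at 518 (444 to 601) against 1237 (1144 to 1335).

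Genes of fibrinolysis and prostacyclin synthesis were among those higher in both libraries. Plat, the tissue plasminogen activator gene, stood at 832 CPM (695 to 989) against 220 (165 to 287) at P7 and at 458 (389 to 537) against 153 (121 to 190) at P30. Plaur, the urokinase receptor gene, stood at 142 (88.9 to 215) against 8.29 (1 to 30) and at 125 (90.1 to 169) against 26.4 (14.5 to 44.4). Ptgis, the prostacyclin synthase gene, stood at 355 (267 to 462) against 145 (101 to 202) and at 411 (345 to 485) against 132 (103 to 167). Of 14 and 15 measured haemostasis genes, 5 and 5 were higher and 1 and 1 lower, with medians of 0.40 and 0.40. The lower counts are near the shares over all genes, 8.47% and 7.73%, while 11.7% and 11.1% of all genes were higher. The gap junction gene Gja1 was higher in both libraries, at 561 (450 to 692) against 74.6 (44.2 to 118) and at 354 (293 to 424) against 121 (93.1 to 154), the opposite of Gja4. Of 15 and 14 measured junction genes, 5 and 2 were higher and 2 and 0 lower, and the P30 share is near the 11.1% of all genes.

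The noncoding RNAs Meg3 and Rian, which lie in 1 imprinted cluster on chromosome 12, were both higher. Meg3 stood at 1755 CPM (1552 to 1976) against 232 (175 to 301) at P7 and at 676 (591 to 769) against 75.5 (54.0 to 103) at P30, and Rian at 206 (141 to 291) against 12.4 (2.56 to 36.3) and at 86.3 (57.8 to 124) against 1.89 (0.0478 to 10.5). Matrix-gene barcodes carried Meg3 at 886 and 534 CPM. Igf2r, the clearance receptor for Igf2, was also higher, at 516 (409 to 642) against 236 (179 to 306) and at 295 (239 to 359) against 127 (98.1 to 161). Of 11 measured MHC class I genes at P30, 5 were lower and 0 higher (median −0.89), against 2 of 7 higher and 0 lower at P7 (median 0.15). H2-K1 stood at 372 (310 to 443) against 910 (831 to 995) at P30. Immediate early genes, which also respond to tissue dissociation, were lower in 8 of 24 measured at P7 and 8 of 26 at P30, and higher in 2 and 2, with medians of −0.66 and −0.67. Egr1 stood at 239 (168 to 329) against 1414 (1268 to 1572) and at 1604 (1472 to 1745) against 3683 (3521 to 3850).

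Between the libraries, the surface barcodes at P30 held more Igfbp5, Inhba, Ifi27l2a, Ly6a and immediate early transcripts and less H19, Igf2, Meg3 and Wnt4 than at P7. Of 4046 measured genes 244 (6.03%) were higher at P30 and 559 (13.8%) were lower, and the median ratio over all of them was −0.17 (log2). TMM scaling moved all ratios up by 0.32 and split the genes into 473 higher and 317 lower, and the median of ratios moved them up by 0.30, into 453 and 332. The balance between directions therefore rested on the scaling. Calls kept under both scalings and with the highest barcode left out were 221 higher and 223 lower, and those are described except where stated. The other endothelial barcodes, from the same libraries, had 283 of 4150 (6.82%) higher and 645 (15.5%) lower.

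Ifi27l2a, an interferon-inducible gene, had 3 UMIs at P7, 19.4 CPM (3.99 to 56.6), and stood at 961 CPM (859 to 1072) at P30, while the other endothelial barcodes held 45.6 (22.8 to 81.6) and 684 (615 to 758). Its copy Ifi27l2b had 0 and 47 UMIs, and reads may be split between them. Ly6a stood 2.68-fold higher at P30 and Bst2, another interferon-inducible gene, had 2 and 20 UMIs. Of 10 measured interferon response genes 4 were higher and 0 lower, with a median of 1.40. Ifi27l2a, Bst2 and Ly6a were the 3 kept, and 7 were higher under TMM and under the median of ratios. B2m, the MHC class I light chain gene, stood at 677 (554 to 820) and 2176 (2021 to 2339), against 630 (534 to 739) and 3271 (3119 to 3429) in the others. In the other endothelial barcodes 7 of 14 measured interferon response genes were higher at P30, so both endothelial groups held such genes.

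Igfbp5 stood 4.10-fold higher at P30 in surface and 8.30-fold higher in other endothelial barcodes. Inhba stood 2.95-fold and 3.53-fold higher. Areg and Ereg were higher at P30 in surface barcodes, from 6 and 2 UMIs to 66 and 28. Other genes leading on the higher side were Snord13, with 0 and 73 UMIs, and Sgcb, a sarcoglycan gene with 0 and 38. Sepp1, the selenoprotein P gene, had 9 and 122 UMIs, Gadd45g, a stress-response gene, 2 and 52, and the choline kinase gene Chka 0 and 29. Pf4, a platelet and macrophage chemokine gene, also passed the fold, but 28 of its 29 P30 UMIs lay in the member that held most macrophage UMIs, and it was not kept without its highest barcode.

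Of 26 measured immediate early genes, 12 were higher at P30 and 0 lower (median 0.97), all 12 of them kept. Egr1 stood 6.72-fold higher, against 2.60-fold in the other endothelial barcodes. Fos stood at 1587 CPM (1395 to 1798) and 4324 (4105 to 4552), and Atf3 at 903 (760 to 1066) and 2369 (2207 to 2539). In the other endothelial barcodes Fos stood at 2355 (2165 to 2557) and 5224 (5031 to 5422). There 11 of 25 measured immediate early genes were higher at P30 and 1 lower (median 0.80).

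**Figure D4:**
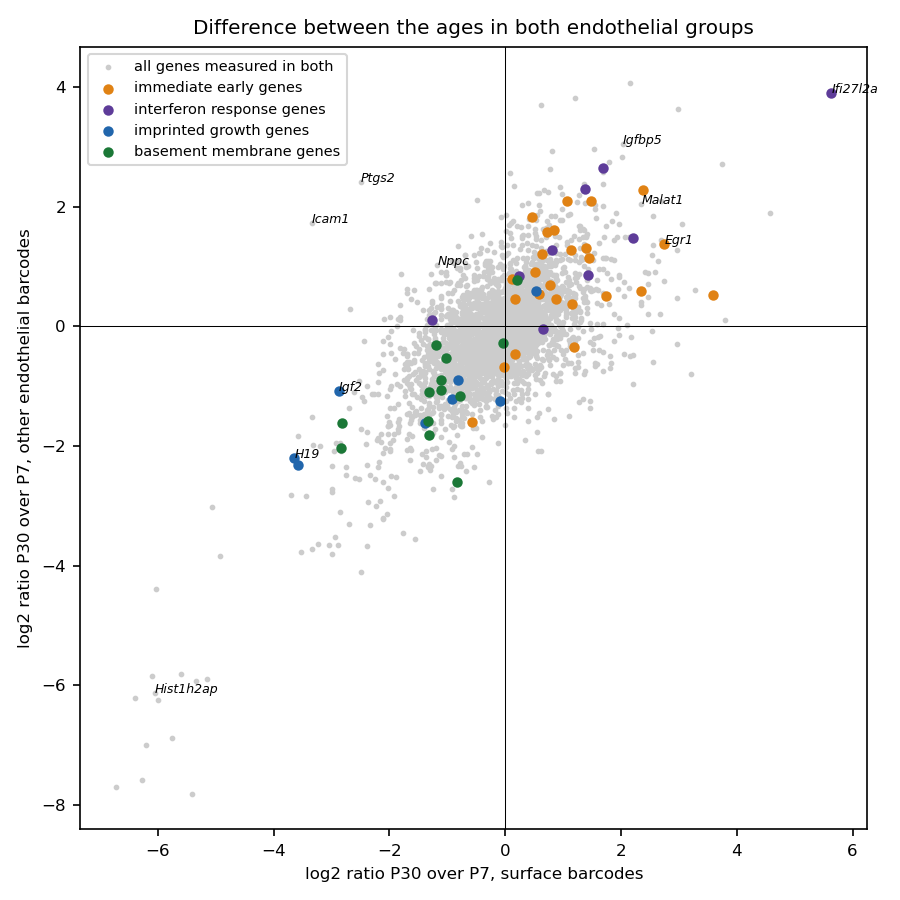
Log2 ratio of P30 over P7 for each gene measured in both endothelial groups, surface barcodes on the horizontal and other endothelial barcodes on the vertical axis, with 4 gene lists coloured. Ifi27l2a lies at 5.63 and 3.91, H19 at −3.64 and −2.20, the immediate early genes lie mostly to the right of 0, and Icam1 and Ptgs2 lie left of 0 on the surface axis and above 0 on the other.

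H19, an imprinted growth-restraining noncoding RNA, stood at 5522 CPM (5158 to 5905) at P7 and 443 (375 to 521) at P30, 12.5-fold lower, and was 4.59-fold lower in the other endothelial barcodes. Its neighbour Igf2, the fetal growth factor gene, stood at 4103 (3790 to 4435) and 560 (482 to 645). Of 9 measured imprinted growth genes 5 were lower and 0 higher, with a median of −1.26, and H19, Igf2 and Meg3 were kept. In the other endothelial barcodes 7 of 11 measured were lower and 0 higher, with a median of −1.21. H19 was detected in 61.3% of P7 and 20.9% of P30 members (51.1% and 13.1% thinned). The Wnt ligand genes Wnt4 and Wnt7a stood 2.80-fold and 4.34-fold lower, Wnt7a on 16 and 8 UMIs. Nrg1 stood 13.0-fold lower, and Efnb2 2.81-fold. Sele and Selp, the endothelial selectin genes, stood at 464 (363 to 585) and 83.3 CPM (55.4 to 120), and at 155 (99.2 to 230) and 44.6 (25.0 to 73.6).

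Basement membrane genes were lower in 9 of 14 measured and higher in 0 (median −1.12), but only Fbln2 was kept, at 213 (147 to 299) and 29.8 CPM (14.3 to 54.7). Under TMM scaling 3 of the 14 were lower. In the other endothelial barcodes, without these checks, 9 of 15 measured were lower and 0 higher (median −1.10). Of the rule genes, Wnt9b, Pthlh and Dkk2 had log2 ratios of −0.51 (−0.83 to −0.18), −0.76 (−1.02 to −0.51) and 0.35 (0.06 to 0.64), and none was 2-fold apart.

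The 10 genes leading on the lower side were all Hist1h2a histone genes, near-identical copies whose reads are hard to assign. In the P7 surface barcodes 1362 of 1396 Hist1h2a UMIs (97.6%) lay in 1 member with 19978 UMIs, the same that held most cell cycle UMIs. Without that member the log2 ratio of Hist1h2ap was 0.32 in place of −6.05, and the histone difference rests on that barcode. Cell cycle transcripts summed to 2058 CPM at P7 and 1289 CPM at P30. Without the member that held most of them in each library the sums were 829 and 1161 CPM, so the order of the ages turned. With each gene's highest barcode left out, the proliferation genes Mki67, Top2a and Hmgb2 were higher at P30 by 1.79, 1.44 and 2.52 (log2). Their P7 level was then at or near the floor of 3 counts, so the size of these ratios is known only loosely. Of the members, 12 of 31 (38.7%) at P7 and 19 of 86 (22.1%) at P30 held at least 5 cell cycle UMIs. This share was larger at P7, where members were deeper. Among other endothelial barcodes 26 of 64 and 43 of 121 held as many.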

How the data were processed

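Count tables of UMIs per gene and barcode were used as deposited by the authors, whole numbers with no normalization. The submitters' processing notes name mm10 and Bowtie2 2.2.7 without a role. The counting program is not given in the sources used here, nor is the annotation. Tables scaled by the authors were not used. Members and gene lists were chosen with earlier results of these data known.

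UMIs were summed per group. Ratios carry exact binomial intervals (scipy 1.17.1, Python 3.11.15), and a group at 0 was set at 3 counts, giving a bound. Genes named singly were the 15 higher and 10 lower in both libraries, and 10 per direction between ages, whose interval bound lay farthest from equal levels. 1 of the lower genes is not reported here. The rule skipped rule genes, mitochondrial, ribosomal and haemoglobin genes, gene models without a name, and genes under 50% of their all-barcode level. Other named genes belong to the 25 lists, and a few were picked with their values in view. Shares thinned to 500 UMIs are expected values over all thinnings. No doublet caller was run, so doublets may remain below 20000 UMIs. The steps were tested on simulated counts drawn without variation between barcodes. This does not show how calls behave where 1 barcode holds most UMIs of a gene. Alternatives covered scaling, depth, filters, each part of the rule, and leaving out barcodes.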

Additional observations from a re-analysis of the deposited data

Results flagged for a closer look

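Some genes had opposite signs in settings where a like difference was read, and none of these contrasts was itself tested. Ptgs2, the inducible cyclooxygenase gene, stood 2.34 (log2) higher in surface than in other endothelial barcodes at P7 and −2.58 at P30, and its P30 over P7 ratio was −2.49 in surface and 2.42 in other endothelial barcodes. Its P7 surface level rests on 13 UMIs, 76.9% of them in 1 member. For surface over other endothelial barcodes at P7 and P30, Olfm1 had log2 ratios of −1.09 and 1.56, Sox7 of 1.03 and −1.14, and Stk38 of −1.15 and 1.56. The P7 sign of Olfm1 rests on 1 barcode, since with its highest barcode left out it stood 1.57 higher at P7 and 2.2 higher at P30. Sox7 at P7 stood at 0.87 with its highest barcode left out and was no longer called. For P30 over P7 in surface and in other endothelial barcodes, Icam1, a leukocyte adhesion gene, had −3.34, a bound since it had 0 UMIs at P30, and 1.72. Nppc had −1.17 and 1.02, Rab27b 1.11 and −1.50, and Stx2 1.47 and −1.25. In surface barcodes the age call of Nppc was not kept under TMM or the median of ratios. Icam1 there stood at −2.37 with its highest barcode left out and was no longer called.

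Barcodes over 20000 UMIs were outside the comparisons, yet 4 at P7 and 12 at P30 met the rest of the rule. Wnt9b, Pthlh and Dkk2 together stood at 2270 CPM at P7 and 2427 CPM at P30 in them, against 3245 and 2613 CPM in members. Whether these are single cells was not tested.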

How the results depend on the processing

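No paired analysis was possible because each age has 1 library. Thinning every barcode to 500 UMIs left 131 called genes at P7, 245 at P30, 86 between ages and 52 in both libraries, in place of 868, 741, 803 and 310, since fewer UMIs remained. Equal weight per barcode, called by fold alone, gave 1452 at P7, and no filter beyond 1 UMI gave 1254 at P30. With at least 4 endothelial UMIs, 53 of the 86 P30 members remained. Leaving out barcodes with markers of other cell types, erythroid included, left 314 calls at P30, and gave no value at P7 or between ages, where too few barcodes remained. Alternatives chosen after seeing the data left out each gene's highest barcode, the barcodes with such markers other than erythroid, or the surface barcode with most cell cycle UMIs in each library. Thinning turned P30 Xirp2 to −0.092. At most 10000 UMIs per barcode turned the age ratios of Hist1h2ap and Hist1h2ao to 0.015 and 0.82, the highest barcode out to 0.18 and 1.02, and the cell cycle barcode out to 0.32 and 1.20. Hist1h2ao was at 1.73 without marker barcodes other than erythroid. Under TMM and median-of-ratios scaling, all 70 values of the genes named by rule kept their calls, but with thinning 32 kept, 21 lost and 1 reversed theirs and 16 gave no value, and without barcodes with markers of other cell types, erythroid included, 7 of 25 lost theirs.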
